A study of Mus musculus with 12 samples.

Results

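The interaction of CpG-ODN and IM156 is the change in the ODN response of each gene when IM156 is present. It was measured in mouse splenic B cells by 3′ mRNA sequencing, as (ODN plus IM156 minus ODN) minus (IM156 minus control) on the log2 scale. All 12 libraries entered 1 model, with 3 in each of 4 groups, and a negative value means that the ODN response was lower with IM156 than without it. The members are all genes that passed the low-count filter, 11857 of the 23282 rows in the table. No measured response chose them. The mice were wild-type C57BL/6 animals of 7 weeks, and the series' own description calls them lupus-prone although no lupus-prone genotype is given. The ODN group received 50 µg of CpG-ODN 1826, a class B oligonucleotide, in the abdomen on days 1 and 3. The IM156 group received 30 mg/kg of IM156 by the same route on days 0 and 2. The group given both had each agent on its own days, and the control group is labelled as given neither, with no vehicle injection stated. Spleens were taken on day 4. Nothing in the labels says that the 3 libraries of a group came from separate mice, so p-values measure the spread between these libraries, which may be technical.

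CpG-ODN is a short synthetic DNA with unmethylated CG motifs that Toll-like receptor 9 recognises in endosomes. In B cells this receptor signals through Myd88 to NF-kB, and drives growth, division and antibody secretion. IM156 is a biguanide that lowers mitochondrial oxidative phosphorylation, the chain of complexes I to V that makes most ATP in resting cells. Activated B cells raise ribosome content and mitochondrial respiration before they divide. Interferons made by other cells of the spleen act on B cells too, and induce genes of antiviral defence and antigen presentation.

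Library totals ran from 9650775 to 11532525 counts. The 24 measured markers of B cell identity summed to 12930 to 14060 CPM (counts divided by the TMM-scaled library total and set to a common total) over the 12 libraries. In ODN replicate 2, the ribosomal RNA row Rn45s took 1.456% of counts, against 4.779 to 9.626% in the others. Xist, which silences one X chromosome in female cells, had a single count (1) in ODN replicate 3 and 923.7 to 1319 CPM in the other 11 libraries. The Y-linked genes Ddx3y, Eif2s3y, Kdm5d and Uty had 0 or 1 count in every library, that one included. Whether ODN replicate 3 is what its label says is in doubt, and every value of the ODN group includes it unless stated. The ODN libraries also differed most among themselves, and the main counts are given below without each of the 3.

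No gene passed an adjusted p of 0.05 for the interaction (edgeR's quasi-likelihood test with Benjamini-Hochberg adjustment over 11857 genes, 0.0% called), and the smallest adjusted p was 0.131, for Armc9. At an unadjusted p under 0.05 there were 1453 genes (12.3%), of which 813 (6.86%) were lower and 640 (5.4%) higher with IM156. The count of 0 did not hold under every analysis of the same libraries. DESeq2 called 165 genes, voom with library weights 130, edgeR with no low-count filter 276, and edgeR without ODN replicate 3 260. Without ODN replicate 1, edgeR called 2 genes, neither of them a cytosolic ribosomal protein. The count stayed 0 with other scalings, a stricter filter or a robust fit, and with any other single library left out. DESeq2, voom and the fit without ODN replicate 3 shared 84 genes, among them 36 cytosolic ribosomal proteins, 2 subunits of respiratory complex I, 8 of complexes II to V, and Igtp, an interferon-inducible GTPase. Among 8546 genes with at least 10 CPM in a group, the median 95% interval reached 0.3748 log2 on either side of the estimate, before any adjustment for the number of genes. Over all 11857 genes it reached 0.4517.

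The ODN response without IM156 (ODN minus control) and with IM156 (ODN plus IM156 minus IM156) share no library. Without IM156, 1255 genes passed (10.6%), 870 of them higher (7.34%) and 385 lower (3.25%). With IM156, 293 passed (2.47%), 206 higher (1.74%) and 87 lower (0.734%). Both tests called 193 genes in the same direction (1.63%), 153 higher (1.29%) and 40 lower (0.337%), and no gene was called in opposite directions. The order of these counts did not hold in every analysis. When each response was fitted on its own 6 libraries, 598 genes passed without IM156, 892 with IM156 and 297 in both. Voom with library weights on all 12 libraries called 1026 without IM156, 1095 with it and 349 in both. Leaving out ODN replicate 1 gave 763 and 543, leaving out ODN replicate 2 gave 953 and 310, and leaving out ODN replicate 3 gave 1874 and 445. The larger count without IM156 is thus not a measure of how many genes lost their response.

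Sizes were compared next. The 870 rises called without IM156 had a median log2 of 0.68 there and of 0.29 with IM156, and 759 of them (87.24%) kept their sign. In 373 (42.87%) the response with IM156 was at least 0.5 times the first, and in 111 it had the opposite sign. In 471 of them (54.14%) the 3 libraries given both agents lay above the 3 IM156 libraries, against 12.8% of all genes tested. The 385 falls had medians of −0.51 and −0.12, 288 kept their sign, and in 125 (32.47%) the libraries given both lay below those given IM156, against 11.8% of all genes. Genes chosen for passing in 1 test tend to look smaller in another, and how much of these differences that choice accounts for was not tested. The 206 rises called with IM156 had a median of 1.295 there and 1.02 without it, and 161 of them (78.16%) were at least 0.5 times as large without IM156. The 87 falls had medians of −0.60 and −0.39. Over all genes tested, the median was near 0 in both responses (−0.005 and −0.003), and the responses correlated across genes with r = 0.44, or 0.65 among genes with at least 10 CPM. Genes are not independent replicates, and no p belongs to these values.

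**Figure D1:**
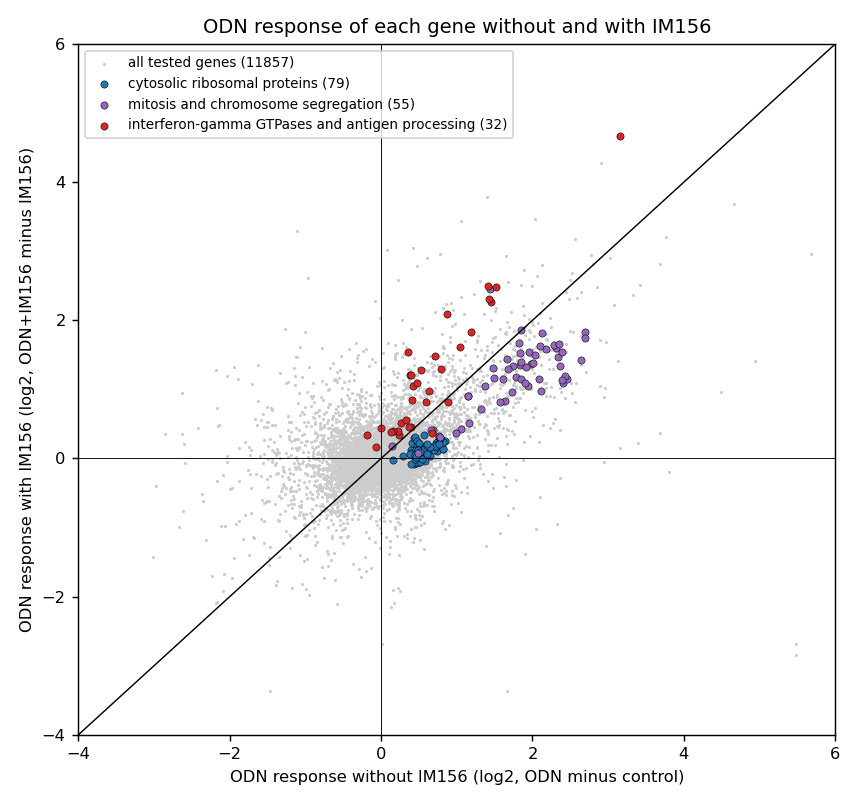
Each point is 1 of 11857 genes, with its log2 ODN response without IM156 on the x axis and with IM156 on the y axis; the diagonal marks equal responses, and 9 genes lie outside the axes. Cytosolic ribosomal proteins form a tight group to the right of 0 and below the diagonal, mitosis genes lie mostly below it and the interferon-gamma list mostly above it.

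Cytosolic ribosomal proteins build both subunits of the ribosome, and their mRNAs are controlled together when cells switch to growth. All 79 listed members were tested. Without IM156, 78 of 79 rose after ODN (median log2 0.54). With IM156, 0 of 79 passed (median 0.12), against 5 with DESeq2, 10 on its own 6 libraries and 15 with voom weights. All libraries given both lay above those given IM156 in 21 of 79, and all ODN libraries above the controls in 78 of 79. The shares over all genes tested were 12.8% and 13.2%. The interaction was below 0 in 79 of 79 members (median −0.47), beside 51.4% of all genes, and 72 had an unadjusted p under 0.05 in the lower direction. In each library the list median, relative to the control mean, was 0.56, 0.64 and 0.47 with ODN, 0.06, 0.10 and 0.20 with IM156, and 0.15, 0.29 and 0.27 with both. All 3 ODN libraries stood above the 3 given both, which in turn overlapped those given IM156. The list median of IM156 against control was 0.14.

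Rpl30, a protein of the large subunit (chromosome 15, 34440505 to 34443640, GRCm38), led these genes. It measured 372, 398 and 341 CPM in the controls, 549, 614 and 496 with ODN, 415, 417 and 428 with IM156, and 405, 406 and 414 with both. Every ODN library was higher than every other library, and the remaining 3 groups lay close together. The response was 0.58 (SE 0.09, adjusted p 0.00043) without IM156 and −0.04 (SE 0.09, adjusted p 0.897) with it, and the interaction was −0.62 (SE 0.13, adjusted p 0.154). Rpl29 (chromosome 9, 106429454 to 106431568), also of the large subunit, had 232, 230 and 212 CPM in controls, 377, 397 and 336 with ODN, 247, 250 and 245 with IM156, and 268, 292 and 277 with both. Here the libraries given both stood above IM156 without overlap, so a smaller response remained (0.72 against 0.17, interaction −0.54). Rps20, of the small subunit, read 3446 to 3866 CPM in controls, 5477 to 6954 with ODN, 3557 to 4712 with IM156 and 4038 to 4875 with both. The retrotransposed copy Rpl37rt had an interaction of −0.57, but ribosomal protein genes have many near-identical copies and how the authors' counting divided such reads is not stated. Over 23 settings, single libraries left out among them, the interaction of Rpl30 ranged from −0.68 to −0.53 and that of Rpl29 from −0.60 to −0.36.

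The mRNAs of ribosomal proteins are known for a run of pyrimidines at their 5′ end, the TOP motif, through which mTOR governs their translation. RefSeq promoter entries (GRCm38.p6, 250 bases before to 50 after the start) matched 58 of the 79 members. A run of at least 8 C or T bases within 15 bases of the start on the sense strand was present in 26 of 58 (44.8%), against 14.7% of 8995 tested genes with an entry. The 3 members with such a run and the smallest interaction p on the chromosomes used for display are shown. Each has 30 bases around the start, 5′ to 3′ on the gene's strand, and the run in capitals. They are Rpl35 (chr2:39005115-39005144, minus strand), Rps18 (chr17:33955648-33955677, minus strand) and Rpl15 (chr14:18270968-18270997, minus strand).
Rpl35: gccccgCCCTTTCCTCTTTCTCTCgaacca
Rps18: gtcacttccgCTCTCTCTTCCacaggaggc
Rpl15: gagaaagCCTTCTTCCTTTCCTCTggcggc
The median interaction was −0.42 in the 26 members with a run and −0.48 in the 32 without one.

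Subunits of the respiratory chain, the process that IM156 lowers, had the same direction. Of 37 complex I subunits, 12 rose after ODN without IM156 (median 0.24) and 0 with it (median −0.01). The interaction was below 0 in 35 of 37 (median −0.29), and 15 had an unadjusted p under 0.05, all lower. Of 41 subunits of complexes II to V, 24 rose without IM156 (median 0.39) and 0 with it (median 0.00). There the interaction was below 0 in 41 of 41 (median −0.35), and 23 had an unadjusted p under 0.05. The counts of rises without IM156 changed with single libraries. They ran from 3 (without control replicate 3) to 17 (without ODN replicate 3) for complex I, with 5 without ODN replicate 1 and 4 without ODN replicate 2. For complexes II to V they ran from 14 to 29, with the same libraries left out. In complex I, ODN replicate 3 had the lowest median of the 3 ODN libraries (0.06, against 0.33 and 0.32).

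Sdhd, the membrane anchor of succinate dehydrogenase (complex II, chromosome 9, 50596357 to 50603812), read 55.5, 52.8 and 49.1 CPM in the controls, 75.9, 93.8 and 74.3 with ODN, 53.4, 54.8 and 62.2 with IM156, and 50.3, 58.9 and 48.1 with both. Only the ODN libraries stood apart, with a response of 0.63 (SE 0.11, adjusted p 0.00119) that was −0.12 (SE 0.11) with IM156. Its interaction was −0.75 (SE 0.16, adjusted p 0.154). Uqcrh, the hinge protein of complex III, had 440, 478 and 396 CPM in controls and 669, 742 and 608 with ODN, but 449, 494 and 544 with IM156 and 461, 533 and 491 with both. Its responses were 0.62 and 0.00. Uqcrb of complex III responded by 0.40 and −0.15, and the complex I subunits Ndufb5 and Ndufa2 by 0.54 and −0.02 and by 0.33 and −0.17. Uqcrb, Ndufb5 and Ndufa2 overlap genes on the opposite strand, as do Sgpp2, Sucla2, Spcs1, Sod1, Dtx3l, B2m and Dusp1 below, and without a stated strand setting their reads cannot be told apart from those of the partner.

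**Figure D2:**
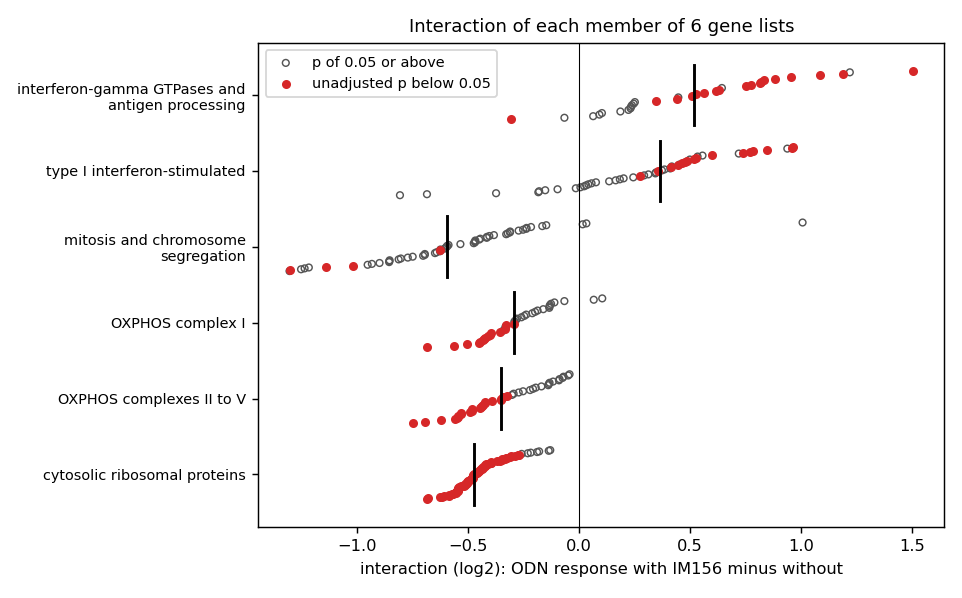
Each point is 1 gene of a list, placed on the x axis by its interaction (log2, ODN response with IM156 minus without); filled points have an unadjusted p below 0.05 and the black bar is the list median. All 79 ribosomal proteins and all 41 subunits of complexes II to V lie to the left of 0, and 30 of 32 members of the interferon-gamma list lie to the right.

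These lists hold short transcripts, and the interaction moved with transcript length over all genes. The median of the longest GENCODE transcript was 1059 bases for the ribosomal proteins and 1046 and 1232 for the respiratory lists, against 3266 for tested genes (11381 of 11857 have a length, 95.99%). In 4 equal classes from the shortest to the longest, the median interaction was −0.11, −0.02, 0.01 and 0.07, and it was −0.10 in the shortest class without the members of these 3 lists. After a correction for the trend of each library with length, added after the data were seen, the median was −0.34 for ribosomal proteins (56 of 79 at an unadjusted p under 0.05), −0.16 for complex I (7 of 37) and −0.19 for complexes II to V (15 of 41).

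Other housekeeping lists followed in part. Over all genes tested, 7.34% rose without IM156 and 1.74% with it. The counts of rises in the TCA cycle and nucleolus lists are near those shares. Glycolysis, which splits glucose to pyruvate, had 5 of 18 members higher without IM156 and 1 with it. That one was Gpi1, glucose phosphate isomerase (111.7 to 137.4 CPM in controls, 176 to 208 with ODN, 122.6 to 124.6 with IM156 and 153 to 166 with both; responses 0.67 and 0.36). Ldha, lactate dehydrogenase, passed without IM156 (0.45) and had 0.20 with it. In the TCA cycle 2 of 20 rose without IM156 and 0 with it; Sucla2, a subunit of succinyl-CoA synthetase, responded by 0.35 and −0.28, neither of which passed. Of 37 genes for the endoplasmic reticulum and its unfolded protein response, 6 rose without IM156 and 0 with it, and the interaction had an unadjusted p under 0.05 in 8 lower and 1 higher. Spcs1 of the signal peptidase responded by 0.42 and −0.14, and Sec61b of the translocon by 0.55 and 0.11. Of 23 antioxidant genes, 4 rose and 1 fell without IM156, and Txn1 (thioredoxin, 0.83 and 0.61) rose in both. Sod1, superoxide dismutase, responded by 0.66 and 0.14. The nucleolus list differed in sign from the ribosomal proteins. Its median interaction was 0.10 over 34 genes, 3 rose and 1 fell without IM156, and 0 passed with it. Npm1, nucleophosmin, responded by 0.65 and 0.20, whereas Polr1b, a subunit of RNA polymerase I, responded by −0.64 and 0.41 with neither passing.

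Some single genes outside these lists were also among those of smallest interaction p that passed without IM156. Armc9, a ciliary basal body protein (chromosome 1, 86154780 to 86278284), was at 37.9, 28.6 and 31.9 CPM in the controls and fell to 12.1, 16.6 and 17.4 with ODN. With IM156 it was at 25.9, 24.9 and 24.4, and with both at 31.1, 26.1 and 26.3. Armc9 overlaps Gm21972 on the same strand. The ODN libraries lay below the controls, while those given both lay above those given IM156. The response was −1.09 (SE 0.15, adjusted p 0.000144) without IM156 and 0.15 (SE 0.15, adjusted p 0.709) with it, with an interaction of 1.24 (SE 0.21, adjusted p 0.131). Klf4, a zinc-finger factor that holds resting B cells out of the cell cycle, read 133, 129 and 175 CPM in controls, 81.1, 62.8 and 56.7 with ODN, 156, 144 and 138 with IM156 and 151, 104 and 141 with both. Its fall of 1.12 without IM156 passed (adjusted p 9.3e-05), and the value with IM156 was −0.15 (adjusted p 0.719). Foxo4, a forkhead factor restrained by growth signals, responded by −0.54 and 0.12. Sgpp2, a sphingosine-1-phosphate phosphatase, had 43.1 to 51.8 CPM in controls and 71.0 to 76.0 with ODN, against 51.0 to 58.0 with IM156 and 42.6 to 56.3 with both. The unannotated transcript Gm20199 responded by −0.91 and 0.60, and its ODN libraries lay below the controls while those given both lay above IM156. Over all 11857 tested genes, 65 showed that pattern and 46 showed the opposite one, against 558 higher in both responses and 292 lower in both.

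Interferon genes had the opposite sign to the ribosomal ones. The list of interferon-gamma inducible GTPases and antigen processing held 32 tested genes of 34. Without IM156, 15 rose (median 0.44), and with it 23 rose (median 1.01), among them all 15. The interaction was above 0 in 30 of 32 (median 0.52); 17 had an unadjusted p under 0.05 in the higher direction and 1, B2m, in the lower. All 32 had their libraries with both above those with IM156, against 15 of 32 for ODN above control. The shares over all genes tested were 12.8% and 13.2%. Per library the list median, relative to the control mean, was 0.34, 0.33 and 0.79 with ODN, −0.07, −0.14 and −0.16 with IM156, and 0.92, 0.66 and 0.80 with both. ODN replicate 3 thus lay among the libraries given both, and without it the median interaction was 0.65 with 23 genes higher.

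Igtp, an immunity-related GTPase that acts on vacuoles of intracellular parasites (chromosome 11, 58199556 to 58207591), measured 42.04, 40.5 and 46.3 CPM in the controls and 45.4, 48.0 and 74.5 with ODN. It measured 32.8, 29.7 and 35.9 with IM156 and 85.4, 67.6 and 75.6 with both. Its response was 0.38 (SE 0.15, adjusted p 0.119) without IM156 and 1.22 (SE 0.15, adjusted p 8.2e-05) with it, and the interaction was 0.83 (SE 0.22, adjusted p 0.154). Irgm2, a regulator of the same family, read 22.9, 21.1 and 24.01 CPM in controls, 28.9, 29.6 and 38.9 with ODN, 17.1, 21.2 and 20.3 with IM156 and 54.7, 48.1 and 39.1 with both (responses 0.52 and 1.27). Annotated Irgm2 overlaps Igtp on the same strand, so their reads may be shared in part. Tgtp1, another GTPase of this kind, rose by 1.52 and 2.48; its neighbour Tgtp2 is nearly identical and had 1.45 and 2.27. Guanylate-binding proteins, which attack pathogen vacuoles, rose in both settings: Gbp2 by 1.04 and 1.61, Gbp6 by 1.43 and 2.31 and Gbp7 by 0.79 and 1.29. Nlrc5, the activator of MHC class I genes, rose by 0.47 and 1.09, and the peptide transporter Tap1 by 0.63 and 0.98. Psmb9, an immunoproteasome subunit on the strand opposite to Tap1, rose by about the same in both (0.88 and 0.81; interaction −0.07, 95% interval −0.33 to 0.20). B2m, the light chain of MHC class I, was the exception: it rose by 0.67 without IM156 and 0.36 with it.

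The promoters of 3 genes of this list are shown because they carry the interferon-stimulated response element, searched as GAAA, any 2 bases and GAAA again on both strands of the RefSeq entries. It was found in 12 of 22 members with an entry (54.5%) and in 18 of 35 type I interferon-stimulated genes with one (51.4%), against 4% of 8995 tested genes. Those shown are the 3 members of the interferon-gamma list with the element and the smallest interaction p on the chromosomes used for display. Each has 30 bases on the gene's strand with the element in capitals. The window of Igtp is chr11:58199512-58199541 (plus strand, beginning at base −44 from the RefSeq start), that of Irgm2 chr11:58214903-58214932 (plus strand, −74) and that of Tgtp1 chr11:48992304-48992333 (minus strand, −87).
Igtp: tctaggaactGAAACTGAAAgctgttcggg
Irgm2: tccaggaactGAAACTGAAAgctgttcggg
Tgtp1: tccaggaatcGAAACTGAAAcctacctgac
The windows of Igtp and Irgm2 are identical in 29 of 30 bases. The median interaction was 0.70 in the 12 members with the element and 0.24 in the 10 without it; in the type I list it was 0.31 in 18 with and 0.42 in 17 without.

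Of 50 tested type I interferon-stimulated genes, 10 rose without IM156 (median 0.12) and 19 with it (median 0.57), 8 of them in both. The count with IM156 ran from 10 to 23 with single libraries left out (10 without IM156 replicate 2), and was 29 on its own 6 libraries and 35 with voom weights. The interaction was above 0 in 42 of 50 (median 0.36), and 16 had an unadjusted p under 0.05, all higher. IM156 against control had a median of −0.21 in this list and −0.12 in the interferon-gamma list. Both agents against ODN alone had medians of 0.11 and 0.44. Per library, relative to the control mean, the type I median was 0.20, 0.13 and 0.21 with ODN. It was −0.14, −0.21 and −0.27 with IM156, and 0.33, 0.19 and 0.30 with both, so the libraries given both overlapped those given ODN. Irf9, a subunit of the interferon-activated factor ISGF3, read 165, 140 and 158 CPM in the controls, 180, 141 and 178 with ODN, 140, 137 and 125 with IM156 and 210, 191 and 202 with both, so the libraries given both stood above all others. It passed with IM156 (0.58, adjusted p 0.00198) and not without (0.11, adjusted p 0.541). Dtx3l, a ubiquitin ligase, responded by 0.03 and 0.55. Zbp1, a sensor of Z-form nucleic acids, rose by 0.81 and 1.25, and Oasl2, of the oligoadenylate synthetase-like family, by 0.83 and 1.599. Other members rose by like amounts: Isg15, the ubiquitin-like modifier, by 0.85 and 0.83 (interaction −0.02, 95% interval −0.51 to 0.48) and Ly6a by 1.21 and 1.11 (interaction −0.10, −0.40 to 0.20). Across single libraries left out, the count at an unadjusted p under 0.05 ran from 9 to 23 for this list and from 11 to 23 for the interferon-gamma list.

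Genes that passed with IM156 and not without it numbered 100, with 53 higher and 47 lower. Slc15a2, a peptide transporter, had 16.7, 35.02 and 18.2 CPM in controls and 30.8, 19.8 and 33.01 with ODN, but 7.78, 11.3 and 13.99 with IM156 and 3.11, 0.951 and 4.52 with both. The 3 libraries given both were the lowest of all 12. Its response was 0.25 (SE 0.31, adjusted p 0.655) without IM156 and −1.92 (SE 0.38, adjusted p 0.0088) with it, the interaction being −2.17 (SE 0.49, adjusted p 0.154). Snhg8, a host transcript of a small nucleolar RNA, read 203, 224 and 181 CPM in controls, 239, 257 and 219 with ODN, 238, 239 and 238 with IM156 and 187, 182 and 183 with both (responses 0.23 and −0.37). The rows Gm18853 and Gm17757 carry the same values and count as 1 locus, which overlaps Gvin1 on the same strand. They stood at 138 to 184 CPM with both against 49.4 to 59.1 with IM156 (1.51), while ODN libraries (54.4 to 130) overlapped the controls (49.5 to 78.3). A630089N07Rik responded by −0.28 and 0.68.

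**Figure D3:**
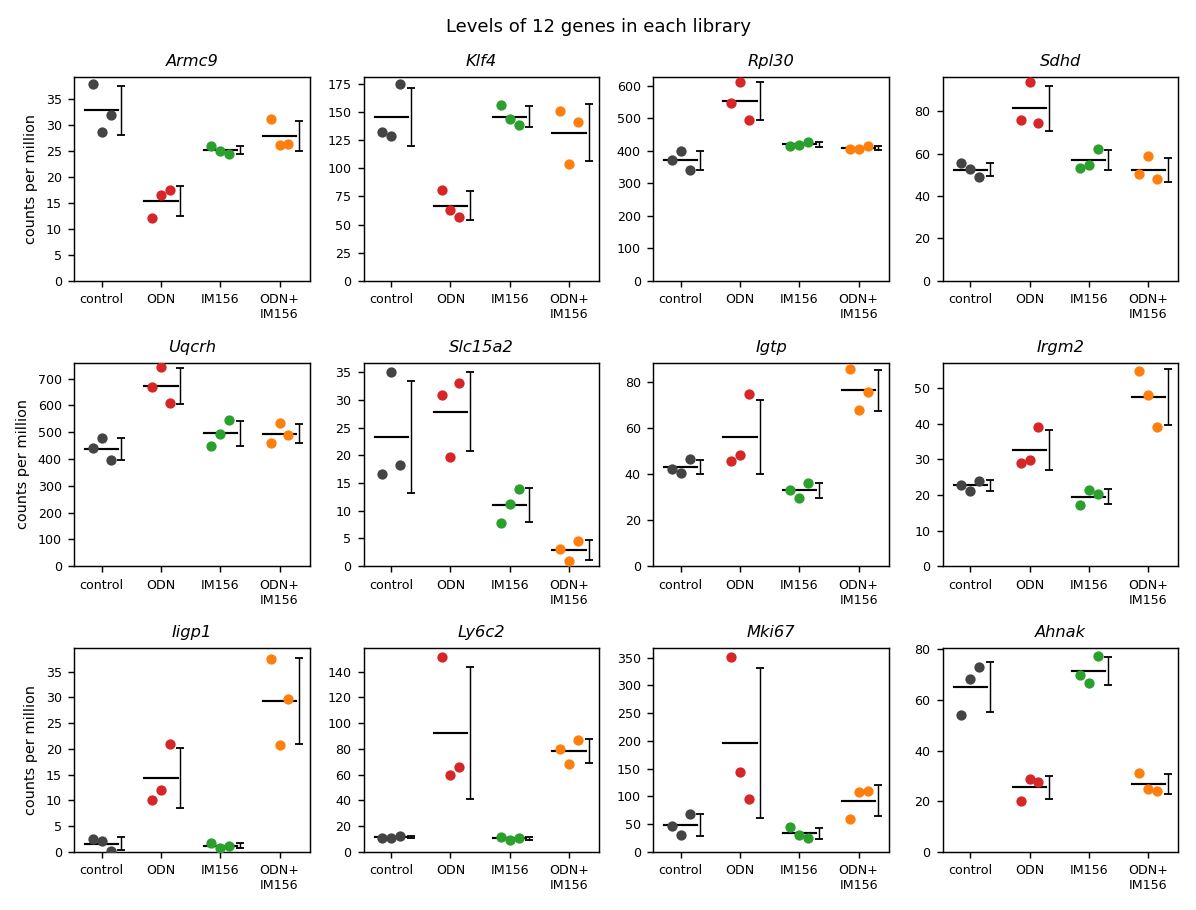
Level (CPM) of 12 genes in each library (points), with the group mean (line) and SD (bar, n = 3). Rpl30, Sdhd and Uqcrh are highest in the ODN group; Igtp, Irgm2 and Iigp1 have their highest mean in the group given both; Ly6c2, Mki67 and Ahnak differ from their own baseline in the same direction in both settings.

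Division genes were also among the kept responses, with 21 mitosis and 6 replication genes among the 153 rises called in both. The mitosis list holds kinases, kinesins and spindle proteins that cells make from late S phase to mitosis. Of 55 members, 52 rose without IM156 (median 1.85) and 22 with it (median 1.198), 21 in both. In 46 of 55 the libraries given both stood above those given IM156, against 51 of 55 for ODN above control. Among all genes tested, 12.8% and 13.2% did so. Interaction was below 0 in 52 of 55 (median −0.60), beside 51.4% of all genes. Only 4 of 55 had an unadjusted p under 0.05, all lower, which is near the 6.86% of all genes tested. These values rested on single libraries. The list median per library was 2.61, 1.55 and 0.83 with ODN and 0.44, 1.13 and 0.88 with both. Without ODN replicate 1 the median interaction was −0.01 with 0 lower and 3 higher, and 47 members rose without IM156 and 40 with it; without ODN replicate 3 it was −0.88 with 33 lower. On its own 6 libraries, the response with IM156 called 49 of 55, whereas a robust fit called 1, and the count ran from 0 to 40 with single libraries left out.

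Top2a, the topoisomerase that untangles replicated DNA (chromosome 11, 98992943 to 99024189), had 104, 70.4 and 124 CPM in controls and 859, 374 and 226 with ODN. It had 88.2, 69.5 and 52.8 with IM156 and 159, 264 and 232 with both, rising by 2.29 and 1.64 (interaction −0.65, 95% interval −1.62 to 0.32). Mki67, a coat protein of mitotic chromosomes, read 46.5, 29.9 and 68.1 CPM in controls, 350, 144 and 94.5 with ODN, 44.3, 29.7 and 24.8 with IM156 and 59.1, 108 and 110 with both (2.03 and 1.49). In both genes 1 ODN library far exceeded the other 2. Cdk1, the kinase that starts mitosis, rose by 2.36 and 1.34 with an interaction of −1.02 at an unadjusted p of 0.03. Ube2c, which helps degrade cyclins, rose by 1.85 and 1.86. The DNA replication list had the same pattern: 34 of 51 rose without IM156 (median 0.84), 6 with it (median 0.48) and 6 in both. In 7 of 51 the interaction p was under 0.05, all lower, against 6.86% of all genes tested. Rrm2 of ribonucleotide reductase rose by 2.19 and 1.73 and the cell cycle factor E2f2 by 0.81 and 0.73. Pcna, the sliding clamp, rose by 0.80 without IM156 and had 0.19 with it. Without ODN replicate 1, 18 replication genes rose without IM156 and 19 with it, and the median interaction was −0.01.

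Many promoters of mitosis genes carry the cell cycle homology region, here searched as TTTGAA on both strands. It was in 32 of 44 members with an entry (72.7%), against 14.3% of 8995 tested genes. The 3 with the smallest p for the response with IM156, on the chromosomes used for display, are shown. Each has 30 bases on the gene's strand, with the match (TTTGAA or its reverse complement) in capitals. These are Top2a (chr11:99024351-99024380, minus strand), Ckap2l (chr2:129297225-129297254, minus strand) and Ube2c (chr2:164769888-164769917, plus strand).
Top2a: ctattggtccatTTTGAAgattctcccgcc
Ckap2l: ttattggcgaatTTCAAAgtcgcggaagcc
Ube2c: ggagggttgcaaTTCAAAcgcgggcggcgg
Members with a match had a median interaction of −0.47 and the 12 without one −0.67.

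The 153 rises called in both had medians of 1.43 without IM156 and 1.39 with it, and 32 of them had an interaction p under 0.05. Iigp1, an immunity-related GTPase, had the largest kept rise among genes with at least 10 CPM in a group, ranked by the smaller of its responses. It had 2.48, 2.09 and 0.194 CPM in controls, 9.999, 12.02 and 20.9 with ODN, 1.70, 0.748 and 1.02 with IM156 and 37.5, 20.7 and 29.7 with both (responses 3.16 and 4.67). Ly6c2, a GPI-anchored surface antigen, read 10.8, 11.1 and 12.1 CPM in the controls, 151, 59.9 and 65.7 with ODN, 11.47, 9.26 and 10.8 with IM156 and 80.0, 68.5 and 87.3 with both. Its responses were 3.02 (SE 0.26, adjusted p 1.2e-06) and 2.90 (SE 0.26, adjusted p 2.5e-06), with an interaction of −0.12 (95% interval −0.89 to 0.65). Serpina3f, a serpin, rose by 2.06 and 2.64, Ifi44 by 2.00 and 2.50 and the S-phase repressor E2f8 by 2.10 and 2.10. The 40 falls called in both had medians of −0.62 and −0.65, and 2 had an interaction p under 0.05. Ahnak, a giant scaffold protein, read 54.2, 68.2 and 72.9 CPM in controls, 20.1, 28.6 and 27.6 with ODN, 70.0, 66.8 and 77.5 with IM156 and 31.2, 24.7 and 23.9 with both. It fell by 1.35 without IM156 and by 1.42 with it (interaction −0.07, 95% interval −0.50 to 0.35). Apol7c, an apolipoprotein L, responded by −1.95 and −1.45, and the anthrax toxin receptor Antxr2 by −1.17 and −1.15.

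Activation and state genes of B cells varied by list. The shares over all genes tested were 7.34% higher and 3.25% lower without IM156, and 1.74% higher and 0.734% lower with it. In the NF-kB and CD11c lists, the rises with IM156 differ from these shares by few genes. Of 39 NF-kB and TLR targets, 8 rose without IM156 and 2 with it; both of the latter, Traf1 (0.73 and 0.71) and Ccl4, rose in both. Bcl2a1d, a survival factor with near-identical copies, passed without IM156 (0.83) and had 0.27 with it. The activation marker Cd83 responded by 0.65 and 0.14, the first of which passed, whereas the costimulator Cd86 passed in neither (0.16 and 0.16). Immediate-early genes, the first transcribed after a signal, were lower on day 4: 10 of 22 fell without IM156 and 6 with it, all 6 in both. Dusp1, a MAP kinase phosphatase, fell by 0.82 and 0.89 and the early activation marker Cd69 by 0.61 and 0.79. The median interaction of the immediate-early list was 0.12. An unadjusted p under 0.05 was found in 5 of 22 members, all higher, against 5.4% of all genes tested. One of them was Nr4a2, an orphan nuclear receptor that fell by 2.09 without IM156 and had −0.24 with it, at 0.765 to 0.937 CPM with ODN against 2.30 to 6.18 in the other groups. Of 18 genes of CD11c and T-bet B cells, 5 rose and 1 fell without IM156 and 2 rose and 2 fell with it. The ODN library medians of this list were 0.86, 0.21 and 0.15, and without ODN replicate 1 the rises were 3 without IM156 and 4 with it. The rises with IM156 ran from 0 (without IM156 replicate 2) to 4. Itgax, which encodes CD11c, rose by 1.23 and 1.13, Fcrl5 by 0.76 and 0.71, while the chemokine receptor Cxcr3 rose by 2.96 without IM156 and had 1.01 with it. Itgax is also a member of the dendritic cell list below, so its rise cannot be assigned to B cells.

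Among 15 follicular genes, 1 rose and 5 fell without IM156 and 1 fell with it, Cd55, an inhibitor of complement (−0.49 and −0.63). Fcer2a, the low-affinity IgE receptor, responded by −0.59, which passed, and −0.20. Of 20 marginal zone genes, 2 rose and 2 fell without IM156 and 1 rose with it. That gene, Plac8, was at 650 to 690 CPM in controls, 1190 to 1776 with ODN, 639 to 668 with IM156 and 890 to 1134 with both, a rise of 1.13 and of 0.58 (interaction −0.55, unadjusted p 0.0042). Of 20 germinal centre genes, 1 rose and 3 fell without IM156 and 0 passed with it. Their median interaction was the most positive of the 30 lists (0.61), with 18 of 20 above 0 and 4 at an unadjusted p under 0.05; the library medians of the 4 groups overlapped, and that count ran from 1 to 8 over the alternatives. Of 17 plasma cell genes, 2 rose without IM156 and 1, Ly6c2, with it. Ly6c2 is also a member of the monocyte and macrophage list below, so its rise cannot be assigned to B cells. In B cell identity, 1 of 24 rose and 2 fell without IM156, and Vpreb3 fell in both (−0.44 and −0.74). MHC class II had 1 of 12 higher without IM156 and 0 with it. Of all genes tested, 7.34% rose and 3.25% fell without IM156, and 1.74% rose and 0.734% fell with it. In the marginal zone, germinal centre, B cell identity and MHC class II lists, the rises differ from these shares by few genes. Prdm1, the factor that drives plasma cells, passed in neither (−0.15 and −0.20).

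Few stress and lipid genes passed. Their rises differ by few genes from the shares over all genes tested, 7.34% without IM156 and 1.74% with it. Of 23 genes of the ATF4 response and serine synthesis, 3 rose and 1 fell without IM156, and 2 fell with it. Ddit4, an inhibitor of mTOR complex 1, read 81.4, 177 and 173 CPM in the controls, 111, 174 and 207 with ODN, 208, 206 and 217 with IM156 and 72.5, 136 and 110 with both. The libraries given both lay below those given IM156, with a response of 0.19 without IM156 and −0.99 (adjusted p 0.0366) with it. Psph, the last enzyme of serine synthesis, responded by 0.59, which passed, and −0.13. The stress factor Ddit3 had −0.06 and −0.07. Of 28 sterol and fatty acid genes, 2 rose without IM156 and 0 with it. These were the desaturase Scd2 (0.92 and 0.45) and Pmvk of the mevalonate pathway (0.72 and 0.24).

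**Figure D4:**
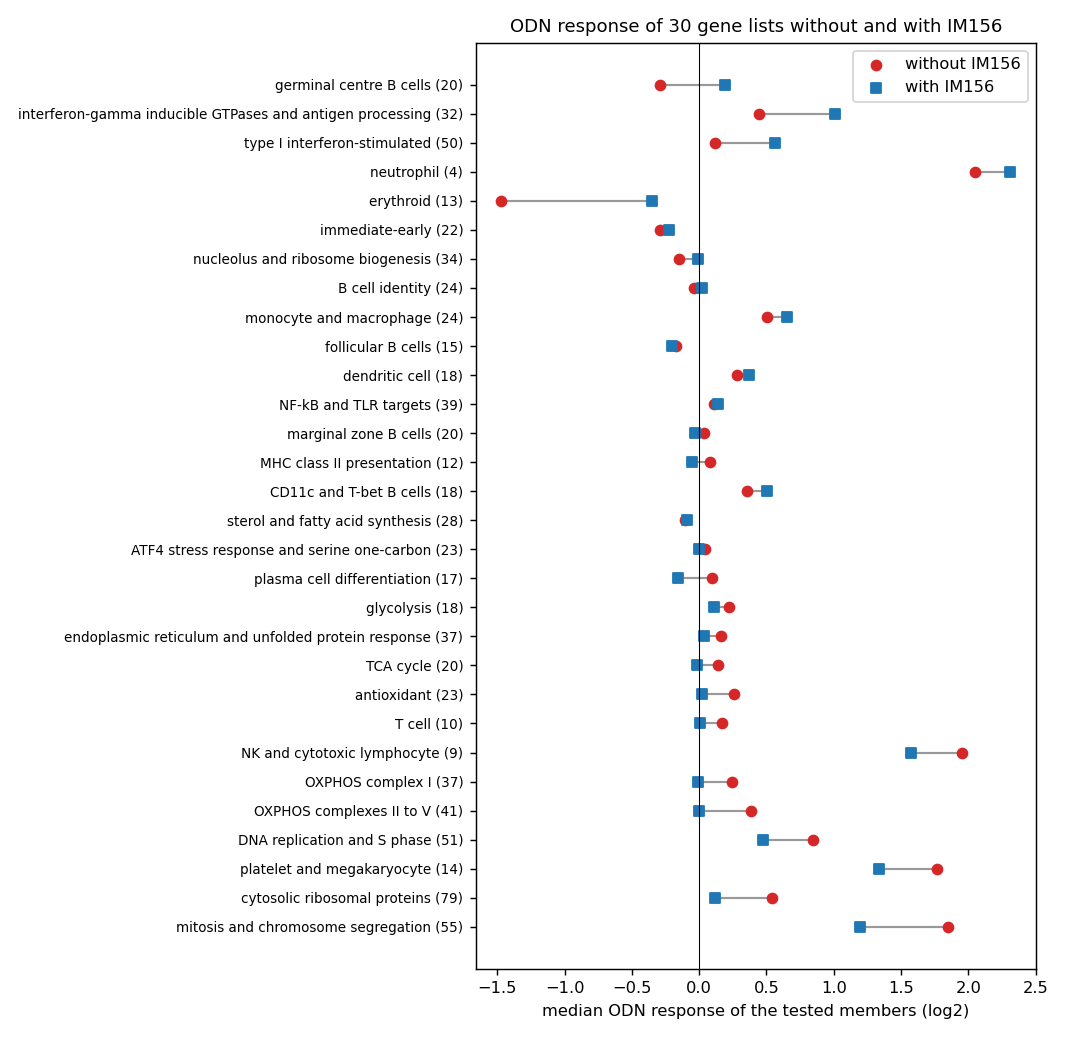
Median ODN response (log2) of the tested members of 30 gene lists, without IM156 (circles) and with IM156 (squares), ordered by the median interaction; the number of tested genes is in parentheses. The germinal centre and interferon lists are at the top, and the ribosomal and mitosis lists at the bottom with medians of 0.54 against 0.12 and 1.85 against 1.198.

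Markers of other spleen cells were measured in the same libraries, and several rose or fell after ODN in both settings. In bulk samples fewer cells of a type and less RNA per cell cannot be told apart. The shares of all genes tested that rose were 7.34% without IM156 and 1.74% with it. The dendritic cell count without IM156 and both T cell counts below differ from these shares by few genes. The 16 platelet and megakaryocyte markers in the table summed to 52.6 to 81.2 CPM in controls, 154 to 251 with ODN, 72.5 to 75.7 with IM156 and 146.3 to 199.6 with both, and 9 of 14 tested rose without IM156 and 5 with it. Pf4, platelet factor 4, rose by 2.21 and 1.296. The 18 NK and cytotoxic markers summed to 58.8 to 69.3, 88.1 to 123.1, 62.03 to 73.9 and 86.4 to 104 CPM in the same order, and 3 of 9 tested rose without IM156 and 4 with it. For 17 neutrophil markers the sums were 7.74 to 10.1, 26.3 to 93.45, 3.19 to 8.61 and 21.02 to 29.1 CPM, with Fcnb at 0. S100a8 rose by 2.45 and 2.40, and 2 of 4 tested rose in both. For 27 monocyte and macrophage markers they were 403 to 474, 528 to 643, 417 to 495 and 558 to 625 CPM, with 8 of 24 higher without IM156 and 3 with it. For 20 dendritic cell markers they were 2074 to 2258, 2325 to 2445, 2070 to 2238 and 2445 to 2565 CPM, with 2 of 18 higher without IM156 and 4 with it. Xcr1, a receptor of cross-presenting dendritic cells, rose by 2.12 with IM156 and had 0.72 without it, at 29.8, 8.88 and 18.4 CPM with both. T cell markers summed to 290 to 349, 317 to 371, 333 to 354 and 302 to 318 CPM, with 0 of 10 passing without IM156 and 1 higher with it, Il7r.

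Erythroid markers summed to 771 to 979 CPM in controls and 212 to 350 with ODN. With IM156 the sums were 197 to 673 CPM, which overlapped those given both (152 to 224). Of 13 tested, 5 fell without IM156 and 3 with it, against 3.25% and 0.734% of all genes. The count with IM156 ran from 0 to 6 with single libraries left out. It was 0 without IM156 replicate 1 or 2 or any 1 library given both, and 6 without ODN replicate 1. IM156 replicate 3 held the low value of its group, with a list median of −2.62 against −0.41 and −0.54. The part of these markers in the values above was not tested. The median interactions were 0.31 for the neutrophil, 0.18 for the erythroid, 0.07 for the macrophage and 0.04 for the dendritic cell list, and −0.41 for the platelet, −0.23 for the NK and −0.20 for the T cell list. Over the alternatives, every one of these medians changed sign except that of the platelet list (−0.75 to −0.25). The neutrophil median ran from −0.44 to 1.34, the erythroid from −0.18 to 0.66 and the NK from −0.30 to 0.22.

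**Figure D5:**
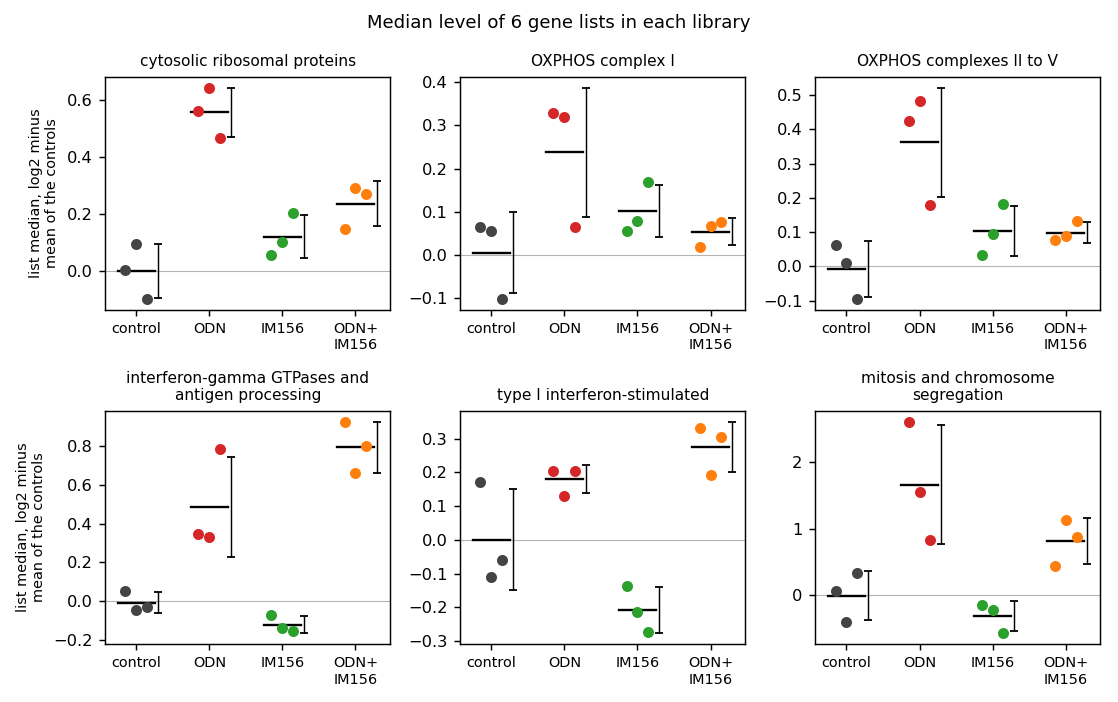
List medians in each library (points, log2 minus the mean of the 3 controls) with the group mean (line) and SD (bar, n = 3), for 6 lists; the y axes differ. The ribosomal list is highest in the 3 ODN libraries, the interferon-gamma list in the libraries given both and ODN replicate 3, and the mitosis list spreads from 0.83 to 2.61 within the ODN group.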

How the data were processed

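Libraries were prepared with the QuantSeq 3′ kit, per the labels' protocols. Reads were processed with Bowtie2, bedtools and edgeR on GRCm38 (mm10), per the submitters' processing notes; versions, strand setting and gene annotation are not given in the sources used here. The authors deposited raw read counts per gene, which were used. The deposited log2 values, fold ratios and p-values were not used. The counts were fitted with edgeR 4.0.16 (R 4.3.3) on 12 libraries with 1 mean per group, the default low-count filter and TMM scaling. The quasi-likelihood test was two-sided, and a gene was called at a Benjamini-Hochberg adjusted p under 0.05 over 11857 genes. SEs come from the F statistic. Total counts were 9650775 to 11532525 per library, and replicates differed beyond sampling noise (chi-square per degree of freedom 5.143 to 67.84). Each library counted as its own replicate. These values cannot show that the libraries came from separate mice, since such differences may be technical. Symbols on several rows (35 symbols, 79 rows) were kept as separate rows. Coordinates and overlaps are from GENCODE vM21. The scripts were tested on simulated data.

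The genes named are those of smallest interaction p in each direction, those of smallest interaction p among genes called without or with IM156, the largest kept responses, the list members called in both with the 2 of smallest interaction p, and a fixed set; genes given were drawn from these. Rpl35, Rps18 and Rpl15 were added for their promoters. The 30 gene lists and the contrast were chosen with earlier results of these data known. Alternatives were DESeq2 1.42.0, limma 3.58.1 voom with library weights, other scalings and filters, a robust fit, a replicate block, a length correction, fits on 6 libraries and each library left out.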

Additional observations from a re-analysis of the deposited data

How the results depend on the processing

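The count of genes called for the interaction was 0 in the main analysis, 165 with DESeq2, 276 with no low-count filter and 130 with voom weights, and ran from 0 to 260 with single libraries left out; the values of 2 and 260 came without ODN replicates 1 and 3. The ODN response without IM156 called 1255 genes, 598 on its own 6 libraries, and 763 to 1874 with single libraries left out (763 without ODN replicate 1, 811 without control replicate 3). The ODN response with IM156 called 293 genes, 652 with no low-count filter, 1095 with voom weights, 892 on its own 6 libraries, and 114 to 543 with single libraries left out (114 without IM156 replicate 2, 543 without ODN replicate 1). Both responses together called 193 genes, 424 with no low-count filter, 349 with voom weights, 297 on their own libraries, and 84 to 292 with single libraries left out (84 without ODN plus IM156 replicate 3, 292 without ODN replicate 3). The cause of these changes was not tested. After the group mean of each gene was subtracted, same-numbered libraries of different groups correlated at −0.1 to 0.0789. These values show no pairing by number, but with 3 libraries a group they cannot exclude one. With the replicate number as a block the interaction still called 0 genes (smallest adjusted p 0.1626). No named gene changed the sign of a called response under any alternative run. The interaction kept its sign in the genes named for the smallest interaction p over all genes or among genes called without or with IM156. For genes named only as list members, the interaction was not followed over the alternatives. Lists were less stable, and the median interaction of several changed sign. The mitosis list had 4 of 55 members lower and 0 higher at an unadjusted p under 0.05 in the main analysis, against 6.86% and 5.4% of all genes. Without ODN replicate 1 it had 0 lower and 3 higher. With 3 libraries a group, the unadjusted 95% interval of an interaction had a median half-width of 0.4517 log2, and no gene passed after adjustment at any size in the main analysis.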
